A study of Gallus gallus with 6 samples.

Results

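The Wnt pathway genes described here are the 50 genes whose symbols begin with WNT, FZD, SFRP, DKK, RSPO, DVL or AXIN, together with AMER2, LRP5, LRP6, LGR5, WIF1, APC, LEF1 and TCF7L2. They were picked out by symbol, among the probe sets that the array's annotation gives a single gene. The list of symbols was drawn up with earlier results of these data known, so shares of it set beside all genes are descriptions only. The genes were represented by 106 probe sets of the 38535 on the array and by 50 of its 13009 named genes. Each gene was read on its probe set with the highest mean signal. Of the 50 genes, 36 passed the filter on low signal and were tested, and 14, with mean signals of 11.9 to 64.8, did not.

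RNA from whole ovaries of 3 hens with ovarian cancer (cancer, hens 4, LB14 and LB11) and 3 hens without gross or microscopic signs of it (Normal, hens 36, LB3 and LB22) was hybridised to chicken Affymetrix arrays, 1 hen per array. The hens were of like age and laying status, and no drug treatment or engineered genotype was given for either group. The tumours were either restricted to the ovary or had also seeded the abdomen, and which hen had which stage was not given. Strain and age in years were likewise not given.

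The ovary label was checked against marker genes. All 14 granulosa and theca markers on the array, of 15 listed, and all 9 oocyte and germ cell markers on it, of 10 listed, were above the background limit in at least 1 hen. The summed signal of the granulosa and theca markers was 21716, 17507 and 34799 in cancer hens 4, LB14 and LB11, against 52436 to 74250 in Normal hens, and 14 of 14 were lower on average in cancer, 1 of them (ZP3) past the threshold. The 9 oviduct secretory markers, such as ovalbumin, summed to 62828, 114090 and 94025 in cancer hens 4, LB14 and LB11, against 707 to 1425 in Normal hens. All 9 passed the threshold as higher, with 4 of them at background in every Normal hen. Over all probe sets tested, 0.234% passed as higher and 0.0434% as lower. Of the 9, only TF and LYZ had a Normal mean above the filter on low signal. The others were tested only through their signal in cancer hens, so they had to differ in order to be tested. The 8 epithelial markers on the array summed to 44414, 67214 and 29100 in cancer hens 4, LB14 and LB11, against 19979 to 23320 in Normal hens. Of the 8, 7 were higher on average in cancer, 3 of them (CDH1, CLDN3 and CLDN10) past the threshold. CLDN3 passed the filter only through cancer hens. EPCAM, the brightest, overlapped, at 14221 to 25916 in cancer hens, against 12487 to 14301 in Normal hens. The 1 lower marker was KRT19, read on a probe set with the symbol KRT24. The sums of these marker lists moved with the comparison of cancer with Normal, and their part in the differences of the Wnt genes was not tested. In whole-ovary RNA, fewer cells of a type and less RNA per cell cannot be told apart.

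Wnt proteins are secreted, lipid-modified signals that bind Frizzled receptors and LRP co-receptors on the cell surface. Without them, a cytoplasmic complex built on AXIN and APC marks β-catenin for destruction. With them, Dishevelled proteins (DVL) disable that complex, and β-catenin enters the nucleus and works with LEF1 and the TCF factors. R-spondins strengthen the signal, while SFRP, DKK and WIF1 proteins act outside the cell to restrain it. In the ovary the pathway is best known from mammals, where WNT4 and RSPO1 take part in ovary formation.

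Signal is given below as deposited, on each array's common scale, and differences are log2 of signal plus 16, cancer minus Normal, with the standard error and adjusted p of limma. The threshold was an adjusted p of 0.05 over the 23063 probe sets tested. Of the 36 tested Wnt genes, 1 rose in cancer ovaries (AMER2), while 0.234% of all probe sets tested rose. None fell past the threshold in limma, while 0.0434% of all probe sets tested did. At an unadjusted p under 0.05 there were 6 higher and 4 lower Wnt genes, 27.8% of those tested, against 11.4% of all 10671 genes tested.

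The signals of all 3 cancer hens lay above those of all 3 Normal hens for 5 Wnt genes (13.9% of 36, against 8.01% of all genes tested) and below them for 4 (11.1%, against 9.41%). The average was higher in cancer for 20 of the 36 and lower for 16. The median difference was 0.08, against -0.02 over all genes tested. The 5 higher genes without overlap were AMER2, FZD3, AXIN1, AXIN2 and DVL1, 4 of them intracellular scaffolds, and the 4 lower ones were the ligands WNT9A, WNT16 and WNT6 and the co-receptor LRP5. AMER2 passed the filter only through its signal in cancer hens, and WNT9A and WNT10A only through Normal hens, so these 3 had to differ in order to be tested. AMER2 and WNT9A are nevertheless included in the counts of genes without overlap and of those at an unadjusted p under 0.05.

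**Figure D1:**
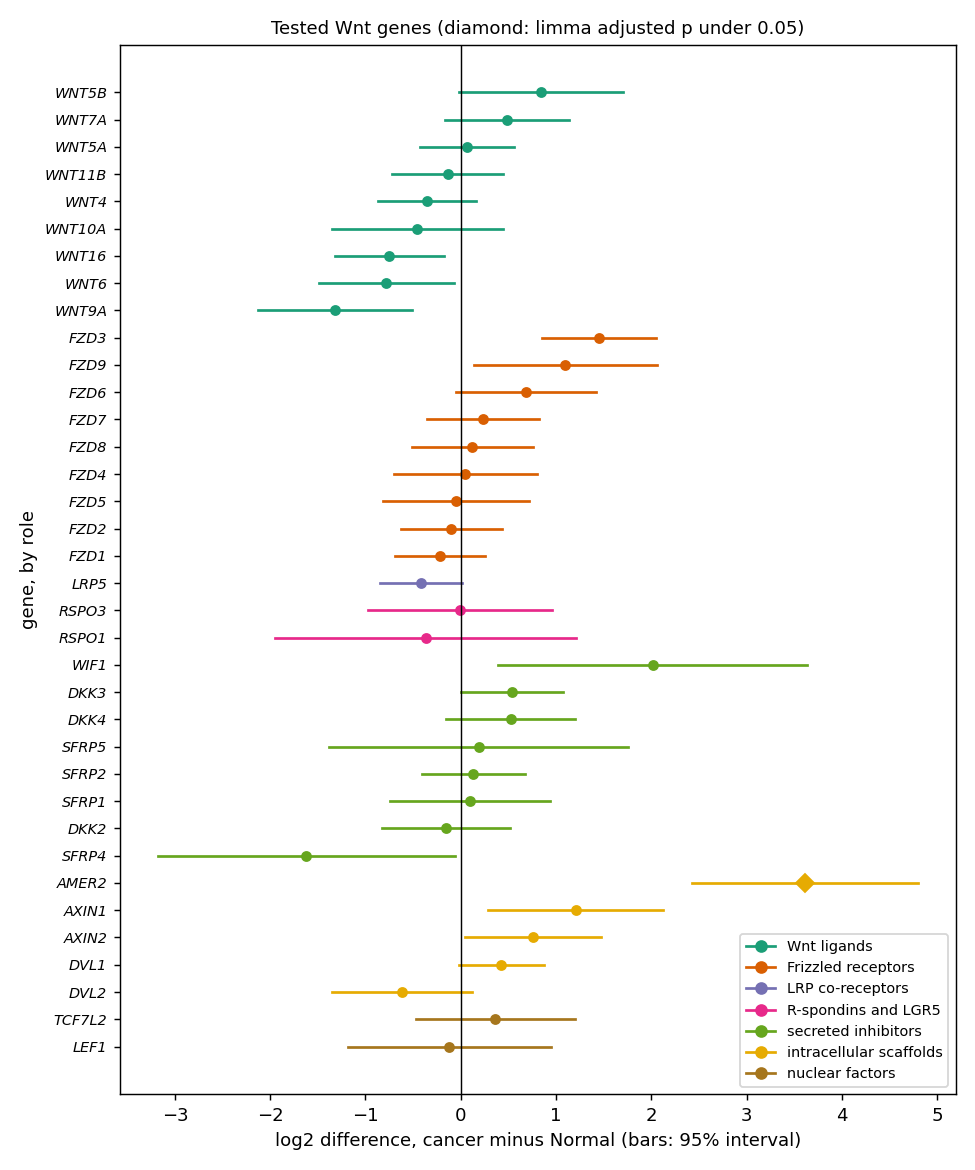
Differences of the 36 tested Wnt genes, grouped by role. The x axis gives the log2 difference, cancer minus Normal, with its 95% interval as a bar, for 3 hens per group; the diamond marks AMER2, the only gene past the threshold, at 3.61, and FZD3 at 1.45 lies nearest to it among the receptors.

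AMER2, a membrane-bound partner of APC that in vertebrates restrains Wnt signalling, had signals of 636, 167 and 166 in cancer hens 4, LB14 and LB11, against 15.99, 4.39 and 2.22 in Normal hens 36, LB3 and LB22. On this probe set it was above the background limit in all 3 cancer hens and at background in all 3 Normal hens, with tumour 4 highest. The signal averaged 323 ± 271 in cancer hens and 7.53 ± 7.40 in Normal hens (SD, n = 3 each). The log2 difference was 3.61 (SE 0.52, 95% interval 2.43 to 4.79, adjusted p = 0.0345). Because the Normal values only bound the level, the tumours' mean log2 signal was set against the background limits, which gave at least 6.51-fold higher in cancer. That fold takes no account of the spread between hens. With the LB hens alone the difference was 3.24 (adjusted p = 0.0796, against a range of 0.00446 to 0.169 over the alternatives that tested it), and the call was lost in 8 of those 18 alternatives. Leaving out tumour LB14 or any 1 Normal hen (36, LB3 or LB22) was enough to lose it, at differences of 3.45 to 3.92. The size depended on the constant added before taking logs, with 5.30 when it was 1 and 2.23 when it was 64. A weaker AMER2 probe set, not tested, read 49.2, 25.3 and 27.1 in cancer hens 4, LB14 and LB11, against 8.95, 59.3 and 5.25 in Normal hens 36, LB3 and LB22. Its groups overlapped, with only tumour 4 and Normal hen LB3 above background.

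Among the other scaffolds, AXIN1, the core of the complex that destroys β-catenin, had signals of 2361, 914 and 665 in cancer hens 4, LB14 and LB11, against 488, 500 and 454 in Normal hens 36, LB3 and LB22. Every tumour lay above every Normal ovary, and tumour 4 lay far above the other tumours. Its log2 difference of 1.21 (SE 0.40, adjusted p = 0.349) did not pass the threshold, and it was 0.68 without tumour 4. AXIN1 had 5 tested probe sets, with differences between 0.25 and 1.21, and the groups did not overlap on 4 of them.

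AXIN2, a close relative of AXIN1 and a widely used target gene of β-catenin, had signals of 1421, 2613 and 1015 in cancer hens 4, LB14 and LB11, against 957, 914 and 876 in Normal hens 36, LB3 and LB22. The Normal ovaries were close to each other and tumour LB11 was only slightly above them. The log2 difference was 0.76 (SE 0.31, adjusted p = 0.455), and the gene's other tested probe set gave 0.51 with overlapping groups. DVL1, which carries the signal from Frizzled to the complex, had signals of 1112, 1308 and 1145 in cancer hens 4, LB14 and LB11, against 733, 965 and 959 in Normal hens 36, LB3 and LB22. The tumours were alike and lay just above the Normal ovaries, with a log2 difference of 0.42 (SE 0.20, adjusted p = 0.519) and of 0.26 on its other tested probe set. DVL2 pointed the other way, with 175, 106 and 152 in cancer hens 4, LB14 and LB11, against 197, 167 and 349 in Normal hens 36, LB3 and LB22, a difference of -0.62 (95% interval -1.36 to 0.12). APC, the large scaffold of the same complex, was below the filter, at 83.3, 99.7 and 53.9 in cancer hens 4, LB14 and LB11, against 57.9, 62.3 and 31.4 in Normal hens 36, LB3 and LB22.

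**Figure D2:**
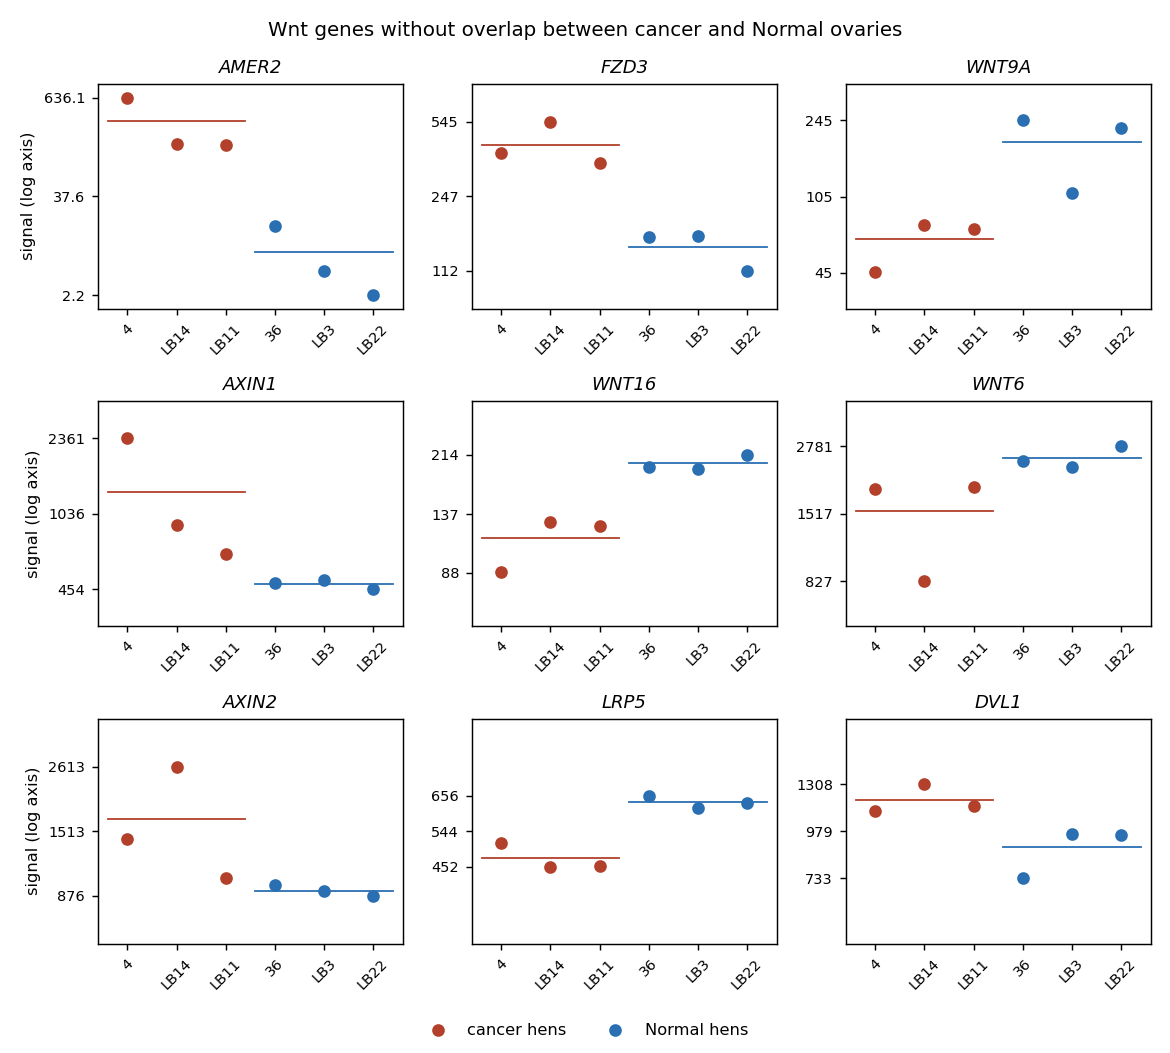
Signal of each hen, on log axes, for the 9 Wnt genes whose cancer and Normal hens did not overlap; points are hens and horizontal lines group means, cancer hens at the left of each panel and Normal hens at the right, and each panel has its own scale. AMER2, FZD3, AXIN1, AXIN2 and DVL1 were higher in all 3 tumours, and WNT9A, WNT16, WNT6 and LRP5 lower.

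Of the 18 Wnt ligands, 9 were tested and none passed the threshold in limma. At an unadjusted p under 0.05, 3 of the 9 were lower and none higher, against 11.4% of all genes tested in either direction. The 3 include WNT9A, which passed the filter only through Normal hens, as did WNT10A among the 9. WNT9A had signals of 45.3, 76.9 and 73.6 in cancer hens 4, LB14 and LB11, against 245, 109 and 226 in Normal hens 36, LB3 and LB22. All tumours lay below all Normal ovaries, and Normal hen LB3 stood nearest to them. The log2 difference was -1.32 (SE 0.36, adjusted p = 0.241). WNT16 had signals of 88.3, 129 and 125 in cancer hens 4, LB14 and LB11, against 196, 192 and 214 in Normal hens 36, LB3 and LB22, a difference of -0.75 (SE 0.25, adjusted p = 0.349). Its Normal values were tightly grouped, well clear of the tumours.

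WNT6 had signals of 1898, 827 and 1926 in cancer hens 4, LB14 and LB11, against 2433, 2309 and 2781 in Normal hens 36, LB3 and LB22. Tumour LB14 was the lowest, and the log2 difference was -0.78 (SE 0.31, adjusted p = 0.437). WNT4, needed for ovary formation in mice, had signals of 4403, 2741 and 4806 in cancer hens 4, LB14 and LB11, against 5018, 4427 and 5464 in Normal hens 36, LB3 and LB22. Tumour LB11 lay inside the Normal range, so the groups overlapped, and the difference was -0.35 (95% interval -0.86 to 0.16, adjusted p = 0.676).

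WNT5A, a ligand known mainly for signalling without β-catenin, had signals of 375, 470 and 546 in cancer hens 4, LB14 and LB11, against 440, 459 and 415 in Normal hens 36, LB3 and LB22. The tumours lay on both sides of the Normal ovaries, and the difference of 0.07 had a 95% interval of -0.43 to 0.56. Its relative WNT5B had signals of 173, 500 and 222 in cancer hens 4, LB14 and LB11, against 130, 122 and 184 in Normal hens 36, LB3 and LB22, a difference of 0.84 (SE 0.38, adjusted p = 0.510). Tumour LB14 stood apart there, and tumour 4 lay among the Normal values.

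WNT7A, which patterns the female reproductive tract in mice, had signals of 91.3, 123 and 102 in cancer hens 4, LB14 and LB11, against 61.0, 61.5 and 91.5 in Normal hens 36, LB3 and LB22. Tumour 4 lay just below the highest Normal ovary, and the difference was 0.49 (95% interval -0.17 to 1.14, adjusted p = 0.645). WNT11B had signals of 236, 224 and 376 in cancer hens 4, LB14 and LB11, against 322, 279 and 301 in Normal hens 36, LB3 and LB22, with a difference of -0.14. WNT10A had 34.1, 43.3 and 91.8 in cancer hens 4, LB14 and LB11, against 49.8, 95.8 and 96.1 in Normal hens 36, LB3 and LB22, and tumour LB14 was at background. Both sets of values overlapped.

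The other 9 ligands (WNT1, WNT2, WNT2B, WNT3, WNT3A, WNT7B, WNT8A, WNT8B and WNT11) were below the filter, with mean signals of 11.9 to 46.1. WNT3, WNT7B and WNT8B were at background in all 6 hens. On its brightest probe set WNT11 was above background in all 3 cancer hens and in no Normal hen, at 34.3, 129 and 45.2 in cancer hens 4, LB14 and LB11, against 38.8, 21.4 and 7.98 in Normal hens 36, LB3 and LB22. Tumour 4 was nonetheless below Normal hen 36, since the background limit differed between arrays. On the next WNT11 probe set tumour LB11, at 10.9, was at background and Normal hen LB22, at 48.9, was above it. WNT2 (73.4), WNT2B (46.3) and WNT1 (38.8) were above background in tumour 4 alone, whose background limit of 25.5 was the lowest of the arrays. On the second probe set of each of these genes tumour 4 was at background, at 0.78 for WNT2, 3.09 for WNT2B and 1.62 for WNT1.

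Of the 10 Frizzled receptors 9 were tested, 6 of them higher on average in cancer and 3 lower, and none passed the threshold in limma. At an unadjusted p under 0.05, 2 of the 9 were higher and none lower, against 11.4% of all genes tested in either direction. FZD3, a Frizzled known for cell polarity and axon guidance in mice, had signals of 390, 545 and 350 in cancer hens 4, LB14 and LB11, against 161, 163 and 112 in Normal hens 36, LB3 and LB22. The groups were well separated, and the signal averaged 428 ± 103 in cancer hens and 145 ± 28.4 in Normal hens (SD, n = 3 each). Its log2 difference was 1.45 (SE 0.26, 95% interval 0.86 to 2.05, adjusted p = 0.0877). The other tested FZD3 probe sets gave 1.13 without overlap and -0.25 with overlap.

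FZD6 had signals of 1041, 1982 and 773 in cancer hens 4, LB14 and LB11, against 850, 669 and 664 in Normal hens 36, LB3 and LB22, a difference of 0.68 (95% interval -0.05 to 1.42, adjusted p = 0.537). Tumour LB11 lay inside the Normal range. FZD9 ranged over 292 to 940 in cancer hens, against 221 to 391 in Normal hens, with a difference of 1.10 (SE 0.43, adjusted p = 0.420), and again only tumour LB11 overlapped. FZD1 had signals of 4741, 8088 and 7645 in cancer hens 4, LB14 and LB11, against 7892, 7623 and 7654 in Normal hens 36, LB3 and LB22. Tumour 4 alone was well below the Normal ovaries on this probe set, and the difference was -0.22 (95% interval -0.69 to 0.25). On the other tested FZD1 probe set all tumours lay below all Normal ovaries, with a difference of -0.36 (adjusted p = 0.681 in limma).

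FZD4 was likewise low in tumour 4. Its signals were 666, 1493 and 1651 in cancer hens 4, LB14 and LB11, against 1364, 1077 and 1019 in Normal hens 36, LB3 and LB22. The difference was 0.05 (95% interval -0.71 to 0.80). FZD7 had signals of 729, 1412 and 1036 in cancer hens 4, LB14 and LB11, against 832, 1006 and 780 in Normal hens 36, LB3 and LB22. Its tumours lay on both sides of the Normal range, and its difference was 0.23 (95% interval -0.36 to 0.82). FZD8 had 476, 544 and 824 in cancer hens 4, LB14 and LB11, against 460, 743 and 483 in Normal hens 36, LB3 and LB22, with overlapping groups and a difference of 0.12. FZD2 (-0.10) and FZD5 (-0.05) also overlapped, and FZD10 was below the filter.

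LRP5, the co-receptor that joins Frizzled in binding Wnt, had signals of 511, 452 and 453 in cancer hens 4, LB14 and LB11, against 656, 614 and 630 in Normal hens 36, LB3 and LB22. Both groups were tight and did not overlap, yet the log2 difference of -0.41 (SE 0.19, 95% interval -0.84 to 0.02, adjusted p = 0.516) did not pass the threshold. The gene's other tested probe set gave 0.08. LRP6, its relative, was at background in all 6 hens.

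RSPO3 and RSPO1, secreted proteins that amplify the response to Wnt, were the tested R-spondins. RSPO3 had signals of 676, 1877 and 2150 in cancer hens 4, LB14 and LB11, against 1296, 2032 and 1056 in Normal hens 36, LB3 and LB22, a difference of -0.01 (95% interval -0.97 to 0.96). RSPO1 had signals of 25.8, 266 and 320 in cancer hens 4, LB14 and LB11, against 137, 214 and 226 in Normal hens 36, LB3 and LB22. Tumour 4 was the lowest hen for both genes, and for RSPO1 the other tumours were the highest. The RSPO1 difference was -0.37 with all hens (95% interval -1.95 to 1.21) and 0.59 without tumour 4. RSPO2 and the R-spondin receptor LGR5 were below the filter.

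All 8 secreted inhibitors were tested. Their groups overlapped in each case and none passed the threshold in limma. At an unadjusted p under 0.05, 1 was higher and 1 lower, against 11.4% of all genes tested in either direction. WIF1, which binds Wnt proteins directly, had signals of 8528, 9872 and 1319 in cancer hens 4, LB14 and LB11, against 2097, 663 and 1179 in Normal hens 36, LB3 and LB22. Tumours 4 and LB14 lay far above every Normal ovary, and tumour LB11 lay among them. The log2 difference was 2.01 with all hens (SE 0.71, adjusted p = 0.373). Without tumour LB11 it was 2.94 (adjusted p = 0.0236, over a range of 0.0236 to 0.840 in the alternatives). Tumour LB11 was the lowest tumour for WIF1, so the adjusted p without it is a description only.

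SFRP4, a Frizzled-like decoy, had signals of 122, 572 and 63.0 in cancer hens 4, LB14 and LB11, against 841, 708 and 284 in Normal hens 36, LB3 and LB22. Tumours 4 and LB11 were below every Normal ovary and tumour LB14 was not. The log2 difference was -1.62 (SE 0.69, adjusted p = 0.471), and the other tested probe set gave -0.86. DKK3, the divergent member of the Dickkopf family, had signals of 4886, 9490 and 7991 in cancer hens 4, LB14 and LB11, against 5385, 4696 and 4804 in Normal hens 36, LB3 and LB22. Here tumour 4 was the one that overlapped, and the difference was 0.53 (SE 0.24, adjusted p = 0.496).

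SFRP2 had signals of 3632, 2517 and 4783 in cancer hens 4, LB14 and LB11, against 3393, 3514 and 2802 in Normal hens 36, LB3 and LB22, a difference of 0.13 (95% interval -0.41 to 0.67). SFRP1 had 273, 451 and 862 in cancer hens 4, LB14 and LB11, against 427, 398 and 512 in Normal hens 36, LB3 and LB22, and its difference was 0.10 on this probe set and -0.36 on the next. In both genes the tumours spread to either side of the Normal ovaries. SFRP5 ranged over 10.8 (at background) to 180 in cancer hens, against 53.3 to 96.6 in Normal hens (difference 0.19). DKK4 (0.52) and DKK2 (-0.15) also overlapped.

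LEF1, a DNA-binding partner of β-catenin, had signals of 312, 776 and 157 in cancer hens 4, LB14 and LB11, against 360, 342 and 412 in Normal hens 36, LB3 and LB22. Tumour LB14 was above the Normal ovaries and the other tumours below them, and the log2 difference was -0.12 (95% interval -1.19 to 0.95). TCF7L2, of the same family, had signals of 88.5, 139 and 178 in cancer hens 4, LB14 and LB11, against 69.0, 160 and 82.4 in Normal hens 36, LB3 and LB22, a difference of 0.36 (95% interval -0.47 to 1.20). Its other tested probe sets gave -0.46 and -0.73, so its direction depended on the probe set.

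Several tested probe sets were available for 16 of the 36 tested genes. Their differences had 1 sign for 11 genes and both signs for 5 (FZD3, LRP5, RSPO3, SFRP1 and TCF7L2), while the other 20 tested genes rested on a single tested probe set.

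**Figure D3:**
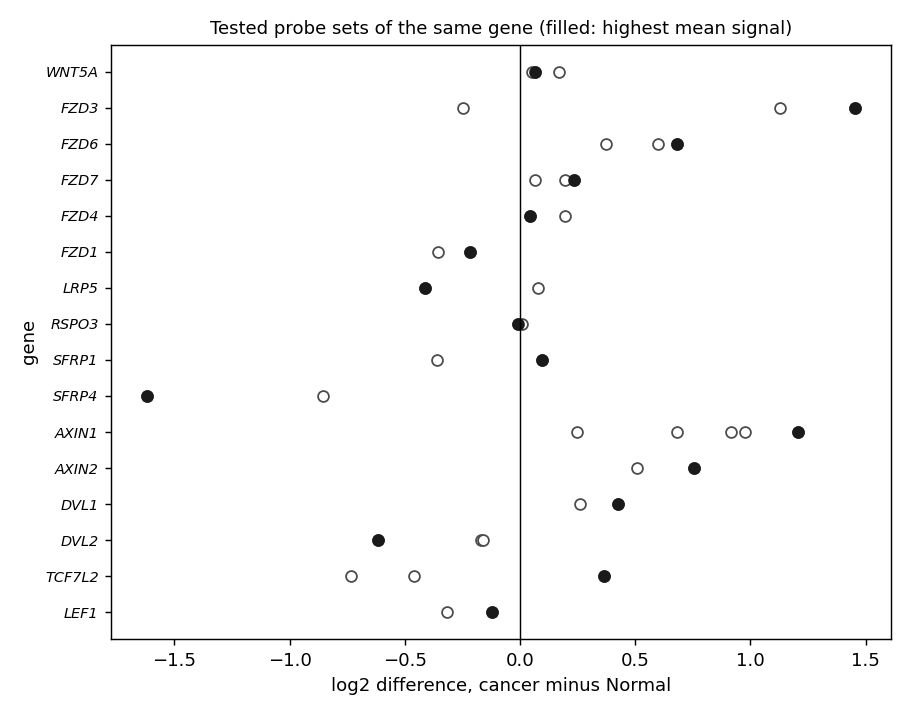
Log2 difference, cancer minus Normal (x axis), of each tested probe set of the 16 Wnt genes that had more than 1; the filled point is the probe set used for the gene and open points are the others. The AXIN1 points all lie above 0, between 0.25 and 1.21, while those of FZD3 and TCF7L2 lie on both sides.

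The Wnt genes varied more between tumours than between Normal ovaries. The median SD of log2 signal was 0.471 in cancer hens and 0.246 in Normal hens, and it was larger in cancer for 29 of 36 genes (80.6%). Over all genes tested the medians were 0.325 in cancer hens and 0.192 in Normal hens, with 71.3% larger in cancer. The highest and lowest tumours differed 12.4-fold for RSPO1, 9.08-fold for SFRP4, 7.49-fold for WIF1 and 4.92-fold for LEF1. The RSPO1 fold is uncertain, since tumour 4 (25.8) lay only just above its background limit (25.5). The highest and lowest Normal ovaries differed 1.65-fold, 2.96-fold, 3.17-fold and 1.20-fold for the same genes in that order. SFRP5 also spread widely, but tumour 4 was at background for it, so no fold is given.

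The tumours differed in which way they lay from Normal. Tumour 4 was the lowest tumour for 19 of the 36 genes (52.8%, against 33.2% of all genes tested) and lay below the Normal range for 18 (50%, against 34.6%) and above it for 9 (25%, against 29.9%). Tumour LB14 lay above the Normal range for 19 (52.8%, against 32.3%) and below it for 9 (25%, against 37.8%). Tumour LB11 lay above it for 20 (55.6%, against 33.6%) and below it for 8 (22.2%, against 29.6%). The median deviation from the Normal mean was -0.22 in tumour 4, 0.40 in tumour LB14 and 0.28 in tumour LB11 (log2). Tumour 4 also had the lowest summed signal of the 9 fibroblast matrix markers, 31168, beside 96863 in tumour LB14 and 92167 in tumour LB11, against 80858 to 109204 in Normal hens. Its sums of leukocyte markers (23567, against 34828 to 54927 in Normal hens), surface mesothelium markers (2286, against 3527 to 3882) and endothelial markers (3131, against 4065 to 4723) were likewise the lowest of the 6 hens. Tumour LB14 was also below the Normal range for the endothelial sum (3337), and tumour LB11 for the mesothelium sum (3360). Not every marker followed its sum in tumour 4. There PECAM1 read 510, against 266 to 497 in Normal hens, and BNC1 read 1221, against 915 to 1220. Of the leukocyte markers, CD3E (497), CSF1R (2886), LY86 (1751) and JCHAIN (8666) lay within the Normal range in tumour 4. Tumour LB11 had the highest sum of the 6 smooth muscle markers on the array, 31090, beside 7408 in tumour 4 and 9375 in tumour LB14, against 6737 to 11029 in Normal hens. The part of these markers in the spread of the Wnt genes was not tested.

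**Figure D4:**
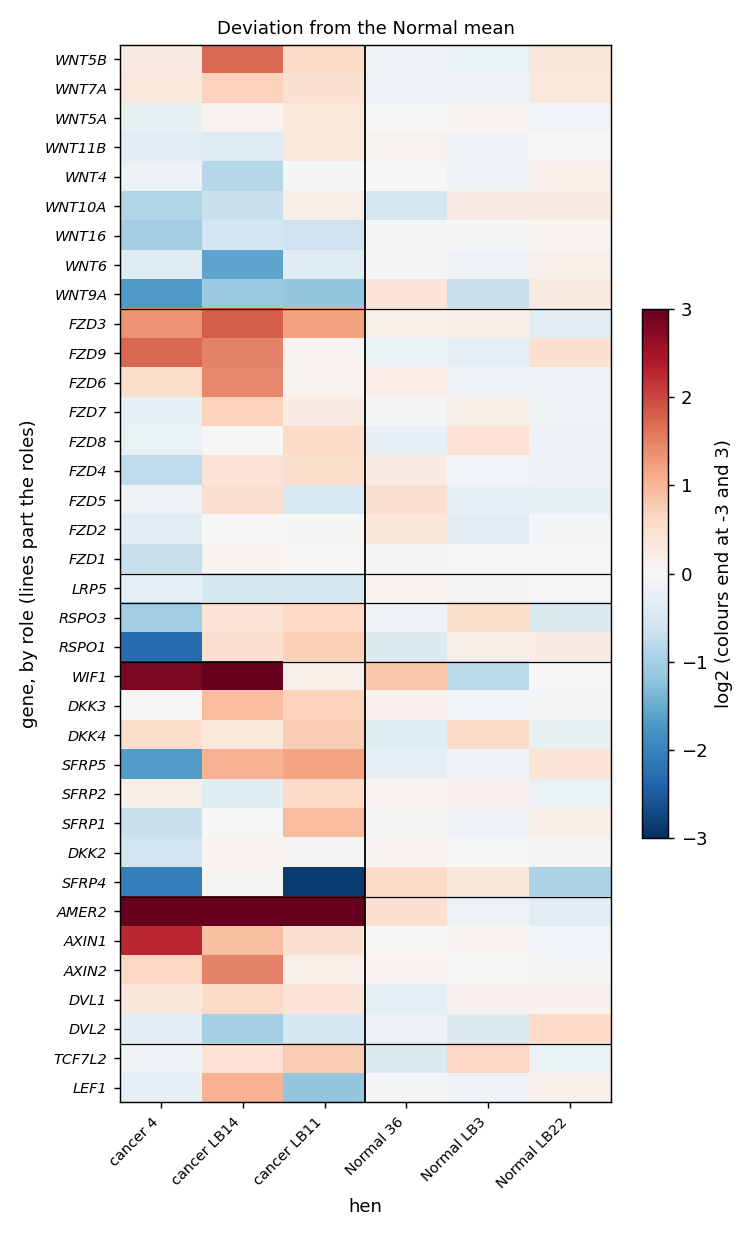
Deviation of each hen from the Normal mean (log2, colour, ending at -3 and 3) for the 36 tested Wnt genes, with cancer hens in the left columns and Normal hens in the right ones. Tumour 4 lies below the Normal range for 18 genes (50%, against 34.6% of all genes tested), and tumours LB14 and LB11 lie above it for 19 (52.8%, against 32.3%) and 20 (55.6%, against 33.6%).

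A further 107 genes of the pathway were listed outside the symbol rule. Of these, 85 were on the array by name and 76 were tested, with a median difference of -0.01 and with 37 higher and 39 lower on average in cancer. In limma 1 rose (SULF1) and none fell, against 0.234% and 0.0434% of all probe sets tested. At an unadjusted p under 0.05 there were 9 higher and 6 lower, against 11.4% of all genes tested in either direction. LGR4, TLE3, ASCL2 and DAAM1 passed the filter only through Normal hens. CXXC5, FGF18, NKD1, APC2 and VANGL2 passed it only through cancer hens. The counts of tested genes include them. SULF1, an extracellular enzyme that trims sulphate from the heparan sulphate chains that hold Wnt proteins, had signals of 703, 1107 and 548 in cancer hens 4, LB14 and LB11, against 145, 76.9 and 55.8 in Normal hens 36, LB3 and LB22. The groups were far apart, with a log2 difference of 2.91 (SE 0.36, adjusted p = 0.0156). The gene's other tested probe set gave 1.95 (adjusted p = 0.299), and the call was lost in 5 of 19 alternatives, among them the LB hens alone (3.29, adjusted p = 0.0532, in a range of 0.0130 to 0.111) and leaving out tumour LB14 or Normal hen LB3 or LB22 (2.64 to 2.84). SULF2, its relative, was lower in every tumour than in any Normal ovary, with a difference of -0.54 (adjusted p = 0.588).

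The inhibitors NOTUM and APCDD1, outside the symbol rule, were split between tumours in the way that WIF1 was. Other inhibitors were not. FRZB (1884, 3114 and 7303 in tumours 4, LB14 and LB11) and SOSTDC1 (1012, 1679 and 2145) were highest in tumour LB11 among tumours. So were SFRP1, SFRP2 and SFRP5. NOTUM, an enzyme that inactivates Wnt by removing its lipid, had signals of 2257, 2050 and 546 in cancer hens 4, LB14 and LB11, against 301, 343 and 321 in Normal hens 36, LB3 and LB22. APCDD1, a membrane inhibitor of Wnt signalling, had signals of 6243, 6027 and 254 in cancer hens 4, LB14 and LB11, against 231, 252 and 190 in Normal hens 36, LB3 and LB22. For both, tumours 4 and LB14 were far above tumour LB11, which for NOTUM was clearly above the Normal ovaries and for APCDD1 was at their upper edge. On the other tested probe set of each gene tumour LB11 lay inside the Normal range, with differences of 1.97 for NOTUM and 1.93 for APCDD1. Tumour LB11 also had the lowest epithelial marker sum of the tumours (29100, beside 44414 in tumour 4 and 67214 in tumour LB14). In that list CDH1 (10765, 16090 and 3106 in tumours 4, LB14 and LB11) was split likewise, but CLDN4 (235, 239 and 232) was not. The granulosa and theca sum (34799) and germ cell sum (36047) were highest there among tumours. The oviduct secretory sum was lowest in tumour 4, where ovalbumin (OVAL) read 3251, beside 33551 in tumour LB14 and 33628 in tumour LB11. Not all of that list went this way. SPINK7 (21885, 8033 and 8145 in tumours 4, LB14 and LB11), MSX2 (3520, 1718 and 461) and PAX2 (1487, 514 and 216) were highest in tumour 4. The part of these markers was not tested.

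The NOTUM difference was 2.04 with all hens (SE 0.47, adjusted p = 0.184) and 2.68 without tumour LB11 (adjusted p = 0.00137, in a range of 0.00137 to 0.637). That of APCDD1 was 3.18 (SE 1.03, adjusted p = 0.322) and 4.69 without tumour LB11 (adjusted p = 0.000212, in a range of 0.000212 to 0.785). For both genes, and for TNFRSF19 below, tumour LB11 was the lowest tumour, so the adjusted p without it is a description only. TNFRSF19, a receptor known as a β-catenin target and singled out after its values were seen, also had tumour LB11 apart, with 634, 1234 and 139 in cancer hens 4, LB14 and LB11, against 183, 155 and 211 in Normal hens 36, LB3 and LB22. Its difference was 1.34 (adjusted p = 0.530) with all hens and 2.19 (adjusted p = 0.0289, in a range of 0.0289 to 0.931) without that tumour. Its other tested probe sets gave 0.73 with overlap and 1.21 without.

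**Figure D5:**
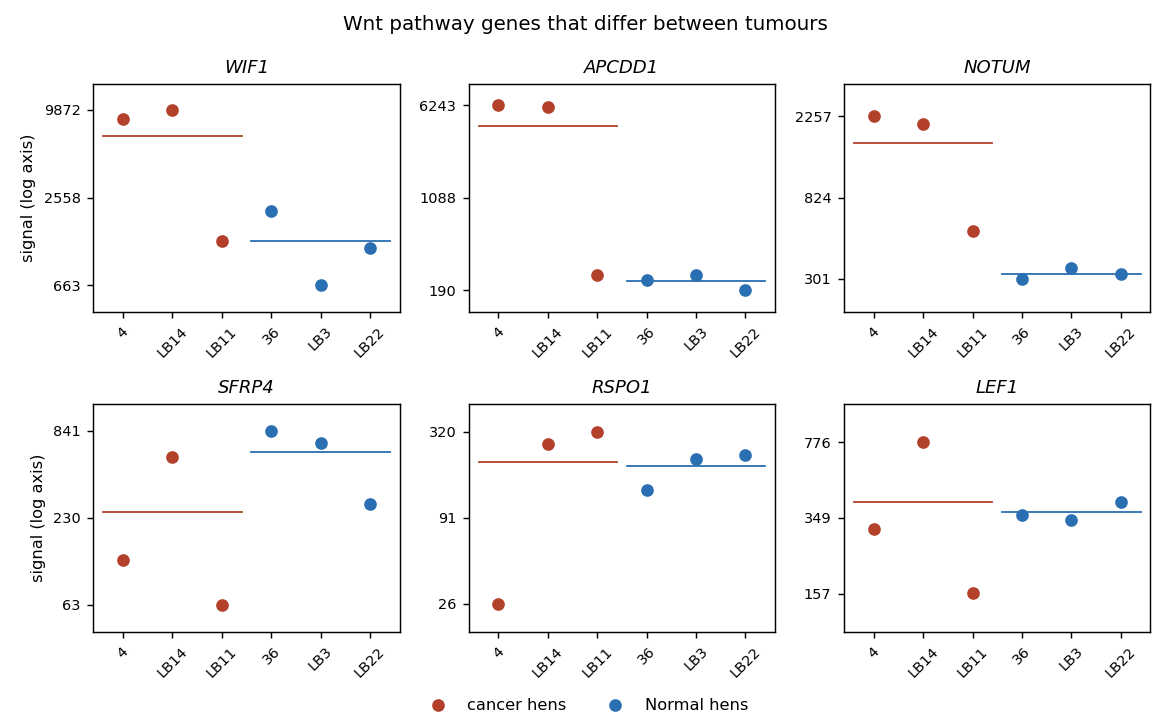
Signal of each hen, on log axes, for WIF1, APCDD1, NOTUM, SFRP4, RSPO1 and LEF1; points are hens and horizontal lines group means, with cancer hens at the left of each panel and Normal hens at the right. WIF1, APCDD1 and NOTUM were high in tumours 4 and LB14 (6243 and 6027 for APCDD1) and lower in tumour LB11 (254), where NOTUM (546) still lay above every Normal hen, while RSPO1 was low in tumour 4 alone (25.8).

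On the receptor side, LGR4, a receptor for R-spondins, had signals of 41.8, 61.8 and 43.0 in cancer hens 4, LB14 and LB11, against 138, 160 and 132 in Normal hens 36, LB3 and LB22. All tumours were well below all Normal ovaries, with a log2 difference of -1.31 (SE 0.28, adjusted p = 0.148). ZNRF3, a ubiquitin ligase that removes Frizzled from the cell surface, had signals of 4985, 3680 and 3555 in cancer hens 4, LB14 and LB11, against 2413, 2663 and 2889 in Normal hens 36, LB3 and LB22, a difference of 0.60 (SE 0.18, adjusted p = 0.297). A second tested ZNRF3 probe set overlapped, at 0.30. LRP4 also did not overlap, at -0.81 (adjusted p = 0.374).

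CTNNB1, which encodes β-catenin, had signals of 10417, 16162 and 9780 in cancer hens 4, LB14 and LB11, against 8698, 9062 and 8482 in Normal hens 36, LB3 and LB22. It was highest in tumour LB14 and above Normal in all tumours, with a difference of 0.43 (SE 0.20, 95% interval -0.01 to 0.88, adjusted p = 0.510). The Dishevelled-binding genes CXXC5 (1.25, adjusted p = 0.341) and DACT1 (0.45, adjusted p = 0.538) were likewise higher in all tumours without passing. Among nuclear genes the corepressors CTBP2 (-0.70, adjusted p = 0.228) and TLE3 (-1.46, adjusted p = 0.271) were lower in all tumours, while TLE4 (0.05) and CTBP1 (-0.29) overlapped. TLE1 (-0.19, adjusted p = 0.862) was barely separated, with tumours LB14 and LB11 at 162 and Normal hen 36 at 164. A weak TLE3 probe set, not tested, was higher in all tumours, at 60.3, 40.9 and 39.9 in cancer hens 4, LB14 and LB11, against 15.9, 10.2 and 17.0 in Normal hens 36, LB3 and LB22. Of the 7 tested planar polarity genes SCRIB alone did not overlap (0.77, adjusted p = 0.450), while its other tested probe set gave 0.39 with overlap. VANGL1, below the filter and not tested, did not overlap either, with 80.6, 71.5 and 67.7 in cancer hens 4, LB14 and LB11, against 49.6, 49.3 and 4.22 in Normal hens 36, LB3 and LB22.

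Of the 18 tested genes in the list of known β-catenin targets, 10 were higher on average in cancer and 8 lower. That count depends on the list. AXIN2, a target gene counted among the members, was left out of it and was higher (0.76, adjusted p = 0.455). ID2, an inhibitor of differentiation, had signals of 5609, 7273 and 4031 in cancer hens 4, LB14 and LB11, against 3046, 2769 and 2976 in Normal hens 36, LB3 and LB22. Every tumour was higher on this probe set, and the difference was 0.90 with all hens (SE 0.22, adjusted p = 0.201) and 1.12 without tumour LB11 (adjusted p = 0.0431, in a range of 0.0431 to 0.646). Tumour LB11 was the lowest tumour for ID2, so the adjusted p without it is a description only. Other tested ID2 probe sets gave 0.56 and 0.82 without overlap and 0.13 with overlap. EPHB2 was higher in all tumours on its brightest probe set (1.38, adjusted p = 0.299) and overlapped on its other tested ones (0.26 and 0.62). ASCL2 (-1.20, adjusted p = 0.355) was lower in all tumours. The cell cycle gene CCND1 (-0.46, adjusted p = 0.575) and MYC (-0.10, adjusted p = 0.957) overlapped between the groups. MYC had signals of 866, 2477 and 1131 in cancer hens 4, LB14 and LB11, against 1346, 1560 and 1437 in Normal hens 36, LB3 and LB22, with tumour LB14 the highest hen.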

How the data were processed

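The 6 arrays were 1-colour Affymetrix chicken arrays. RNA was extracted with TRIZOL and labelled with biotin, per the labels' protocols. The authors used GCOS, per the submitters' processing notes, with no version or settings stated there. The deposited values were signal intensity per probe set on a linear scale, and each array's trimmed mean (2% off each end) was about 500.1. The number of hens (3 per group) limits the precision. Differences were tested with limma 3.58.1 in R 4.3.3 (lmFit, eBayes with a trend, two-sided) on log2(signal + 16). The 23063 probe sets at or above the 40th percentile of mean signal (66.9) were tested, without the 96 control probe sets, with Benjamini-Hochberg adjustment. The script was tested on simulated data.

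A probe set was at background in a hen when its signal did not exceed a limit, the 95th percentile over the 59 controls for transcripts that were not added. An "at least" fold used, in Normal hens, the higher of that limit and the signal. Of the probe sets, 27168 had 1 gene symbol, 177 several and 11094 none. All 50 symbols were found in the RefSeq gene table.

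Signals of all hens were given for members past the threshold, then for those without overlap, then for the brightest of each role, up to 30. Of each list of other pathway genes, those past the threshold were named, then up to 3 without overlap, and CTNNB1, CCND1 and MYC. Members, lists and rules were chosen with earlier results of these data known. Alternatives varied the pseudocount (1, 64), filter, scaling, array weights, threshold, probe set rule and hens; the LB prefix in hen names, of unstated meaning, was tried as a block and alone.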

Additional observations from a re-analysis of the deposited data

How the results depend on the processing

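Of 56 named genes, 40 kept their sign in each of 19 alternatives that tested them, and 16, none with a difference over 0.37 in size, changed it. The 1 Wnt gene higher in cancer became 0 with a pseudocount of 64, without the filter, with the 60th percentile filter (which left AMER2 untested), and without the eBayes trend, as it did in the LB hens by themselves; it became 2 with 0.1 as the threshold, and 0 to 2 when 1 hen was left out. The 1 other pathway gene became 0 with the LB hens alone and with the mean over probe sets, and 0 to 5 when 1 hen was left out. All probe sets higher (54) numbered 35 without the trend, 21 with the LB hens and 87 at 0.1, and 23 to 163 when 1 hen was left out. Those lower (10) numbered 6 without the filter, 3 without the trend, 21 with array weights, 1 with the LB hens and 24 at 0.1, and 0 to 25 when 1 hen was left out. Wnt genes without overlap numbered 17 higher with the LB hens and 2 lower with the 60th percentile filter, and 6 to 13 higher and 5 to 7 lower when 1 hen was left out. Fewer hens make overlap rarer, with the LB hens alone as well as with 1 hen left out. The shares over all genes in these settings are not given, so these counts cannot be read as a result about Wnt genes. The Wnt median of 0.08 lay between -0.10 (without LB11) and 0.46 (without tumour 4). Signs changed for SFRP5 with a pseudocount of 1 (-0.0021) and for RSPO3 with array weights (0.15). With the LB hens alone they changed for DKK2 (0.085), FZD1 (0.042), FZD2 (0.18), FZD5 (0.25), RSPO1 (0.39), RSPO3 (0.45), WNT11B (0.0061) and MYC (0.16), and with the mean over probe sets for RSPO3 (0.0017), SFRP1 (-0.13) and TCF7L2 (-0.28). Leaving out 1 hen gave DKK2 -0.27 to 0.054, FZD1 -0.36 to 0.026, FZD2 -0.25 to 0.078, FZD4 -0.19 to 0.45, FZD5 -0.30 to 0.19, FZD8 -0.11 to 0.33, LEF1 -0.70 to 0.40, RSPO1 -0.91 to 0.59, RSPO3 -0.31 to 0.51, SFRP1 -0.32 to 0.48, SFRP2 -0.091 to 0.37, SFRP5 -0.32 to 1.12, WNT5A -0.056 to 0.21 and MYC -0.54 to 0.21. The cause of these changes was not tested. Signals near the background limits (25.5 to 44.6) set no level. No paired analysis was possible because the groups share no hen numbers.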

Other observations

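Some weak probe sets of the Wnt genes were not tested and are given as values alone. All 3 WNT11 probe sets had their highest signal in tumour LB14, at 129, 111 and 62.1. The second DKK2 probe set was at background in all 6 hens, at 14.2, 34.5 and 8.54 in cancer hens 4, LB14 and LB11, against 5.03, 4.91 and 3.22 in Normal hens 36, LB3 and LB22. The FZD3 probe set below the filter read 33.3, 51.8 and 31.9 in cancer hens 4, LB14 and LB11, against 6.03, 27.4 and 23.1 in Normal hens 36, LB3 and LB22.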
